A study of Homo sapiens with 8 samples.

Results

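SBO01 and SBO12 are a pair of cultures of HMLE cells, an immortalised line of human mammary epithelial cells, in which transcripts of basal keratins stood above those of the other cultures. The series asks which intermediate states such cells pass through in epithelial-to-mesenchymal transition driven by the growth factor TGF-β, and uses pyridostatin, a ligand of G-quadruplexes (folds of DNA with many guanines), as a probe. Each of 12 cultures carried 1 short barcoded oligonucleotide (SBO), and cells were read as unique molecular identifiers (UMIs) with a 10x Genomics 5' kit in 4 mRNA libraries, each with its barcode library. SBO01 to SBO06 make up the first pool (libraries 1 and 2) and SBO07 to SBO12 the second pool (libraries 3 and 4). All cultures are HMLE, and the labels do not say which barcode marks TGF-β, pyridostatin, a time or an untreated culture, so no treatment can be given for any of them. The groups are SBO01 and SBO12 (2 cultures) and SBO02, SBO03, SBO04 and SBO06 to SBO11 (9 cultures). SBO05, a culture rich in vimentin transcripts, was left out of the comparison.

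The members are the 2945 cells assigned to SBO01 (1718 cells) or SBO12 (1227 cells), of 11072 cells with a single barcode in all 12 cultures, and the other 9 cultures hold 6263. Both cultures were chosen by measured values, their high keratin levels in these same cells, so the comparison with the other 9 is a description of what was chosen and supports nothing by itself. The summed level of the 8 basal keratins was 9307 CPM (UMI counts scaled to the sum of each culture) in SBO01 and 9302 CPM in SBO12, and the nearest culture outside was SBO08 at 4520 CPM. Adjusted p-values on that contrast serve here only to sort genes, and higher, lower and pass are used in that sense. The difference between SBO01 and SBO12, and measures of the cells other than their genes' levels, were not used in the choice of the cultures. The number of assigned cells and the UMIs of the own barcode do depend on how barcodes assigned cells to cultures. Of the 2945 cells, 97 carried a cell barcode that also occurred in another library, and they were treated as different cells.

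Basal cells form the outer layer of the mammary duct. They attach to the basement membrane through hemidesmosomes, hold keratins 5 and 14, and depend on the transcription factor p63, whereas the luminal cells inside carry keratins 8, 18 and 19 and make secreted proteins. Interferon-stimulated genes are a shared antiviral programme, which many epithelial cells also hold at a low level without infection.

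The barcode sequences decide which cells belong to a culture, so those of both cultures, and that of SBO08, which was often high in cells of SBO12, are given as the authors' barcode reference lists them.
SBO01: ggacgcaacttaaga
SBO12: agagctaggatcgga
SBO08: gccaagatcaggtcc

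Cells of SBO01 held a median of 399 UMIs of their own barcode, and cells of SBO12 held 36, against 136 to 995 in the other 9 cultures. SBO12 was thus the most weakly marked culture and SBO01 lay within the range of the others. Another barcode was higher than the assigned one in 103 cells of SBO01 (5.99%) and in 782 cells of SBO12 (63.7%), and that barcode was SBO08 in 736 of the 782. In SBO12, KRT5 stood at 1781 CPM in the 782 cells and at 1797 CPM in the rest, and KRT14 at 2416 and 2072 CPM. Low genes differed more between these cells of SBO12, with KRT13 at 6.33 CPM in the 782 and 2.25 CPM in the rest, DHRS3 at 2.85 and 1.27 CPM and IFI27 at 25.1 and 12.3 CPM. In both kinds of cell these 3 genes stayed below the other 9 cultures, whose lowest values were 53.7, 37.3 and 76.8 CPM. In SBO01 the 103 cells stood nearer to the other cultures, with DHRS3 at 17.7 CPM in them and 4.2 CPM in the rest of SBO01, against 37.3 to 62.5 CPM in the other 9. KRT13 stood at 49.2 CPM in the 103 cells and 8.80 CPM in the rest of SBO01. Interferon-stimulated genes of the 103 cells lay within the range of the other 9. IFI27 stood at 137.5 CPM in them (other 9: 76.8 to 687 CPM), IFI6 at 338 CPM (151 to 1025 CPM) and BST2 at 33.6 CPM (15.5 to 141 CPM). KRT5 stayed above the other 9 in the 103 cells, at 1090 CPM against at most 692 CPM.

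The label was checked on its 4 markers. KRT5, a keratin of basal cells (chromosome 12, 52514575 to 52520687, minus strand, GRCh38), stood at 1785 CPM in SBO01 and 1787 CPM in SBO12, against a lowest value of 514, a median of 551 and a highest of 692 CPM in the other 9. KRT14, its partner (chromosome 17, 41582279 to 41586921, minus strand), stood at 2421 CPM in SBO01 and 2286 CPM in SBO12, against 560, 833 and 1053 CPM. TP63, the gene of p63 (chromosome 3, 189631416 to 189897279, plus strand), stood at 25.7 CPM in SBO01 and 17.0 CPM in SBO12, against 6.52, 7.52 and 10.9 CPM. SBO01 and SBO12 were above every other culture for all 3 genes. FGFBP1, a secreted carrier of fibroblast growth factors (chromosome 4, 15935569 to 15938740, minus strand), stood at 633 CPM in SBO01 and 615 CPM in SBO12, against 101, 201 and 228 CPM. The log2 fold changes over the other 9, with standard errors from the edgeR fit and the pool as a block, were 1.72 ± 0.08 for KRT5, 1.61 ± 0.13 for KRT14, 1.48 ± 0.15 for TP63 and 1.94 ± 0.15 for FGFBP1. Other basal and myoepithelial genes went against the label or overlapped the other cultures. TAGLN and ACTA2 are muscle-type genes that mark contractile myoepithelium. TAGLN was lower, at 36.4 CPM in SBO01 and 23.5 CPM in SBO12 against 24.2 to 131 CPM, which overlap. It did not pass with DESeq2 (adjusted p 0.0632). By edgeR it did not pass without the pool block (adjusted p 0.192) or with SBO05 included (0.165). Nor did it pass without library 1 (0.0606) or in cells whose own barcode was highest (0.092). ACTA2 stood at 2.13 CPM in SBO01 and 1.92 CPM in SBO12 against 0.852 to 2.70 CPM, which overlap, and did not pass. It passed as higher under a top barcode rule (log2 fold change 0.776, edgeR adjusted p 0.0269). There a cell went to its highest barcode only if that held at least 10 UMIs and at least 3 times the second. TAGLN did not pass under it (edgeR adjusted p 0.0819). That rule left SBO12 with 60 cells in library 3 and 38 in library 4. NGFR, a surface marker of basal cells, was lower, at 1.11 and 0.959 CPM in SBO01 and SBO12 against 1.99 to 3.63 CPM. Basal therefore refers here to most basal keratins, p63 and some hemidesmosome genes.

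**Figure D1:**
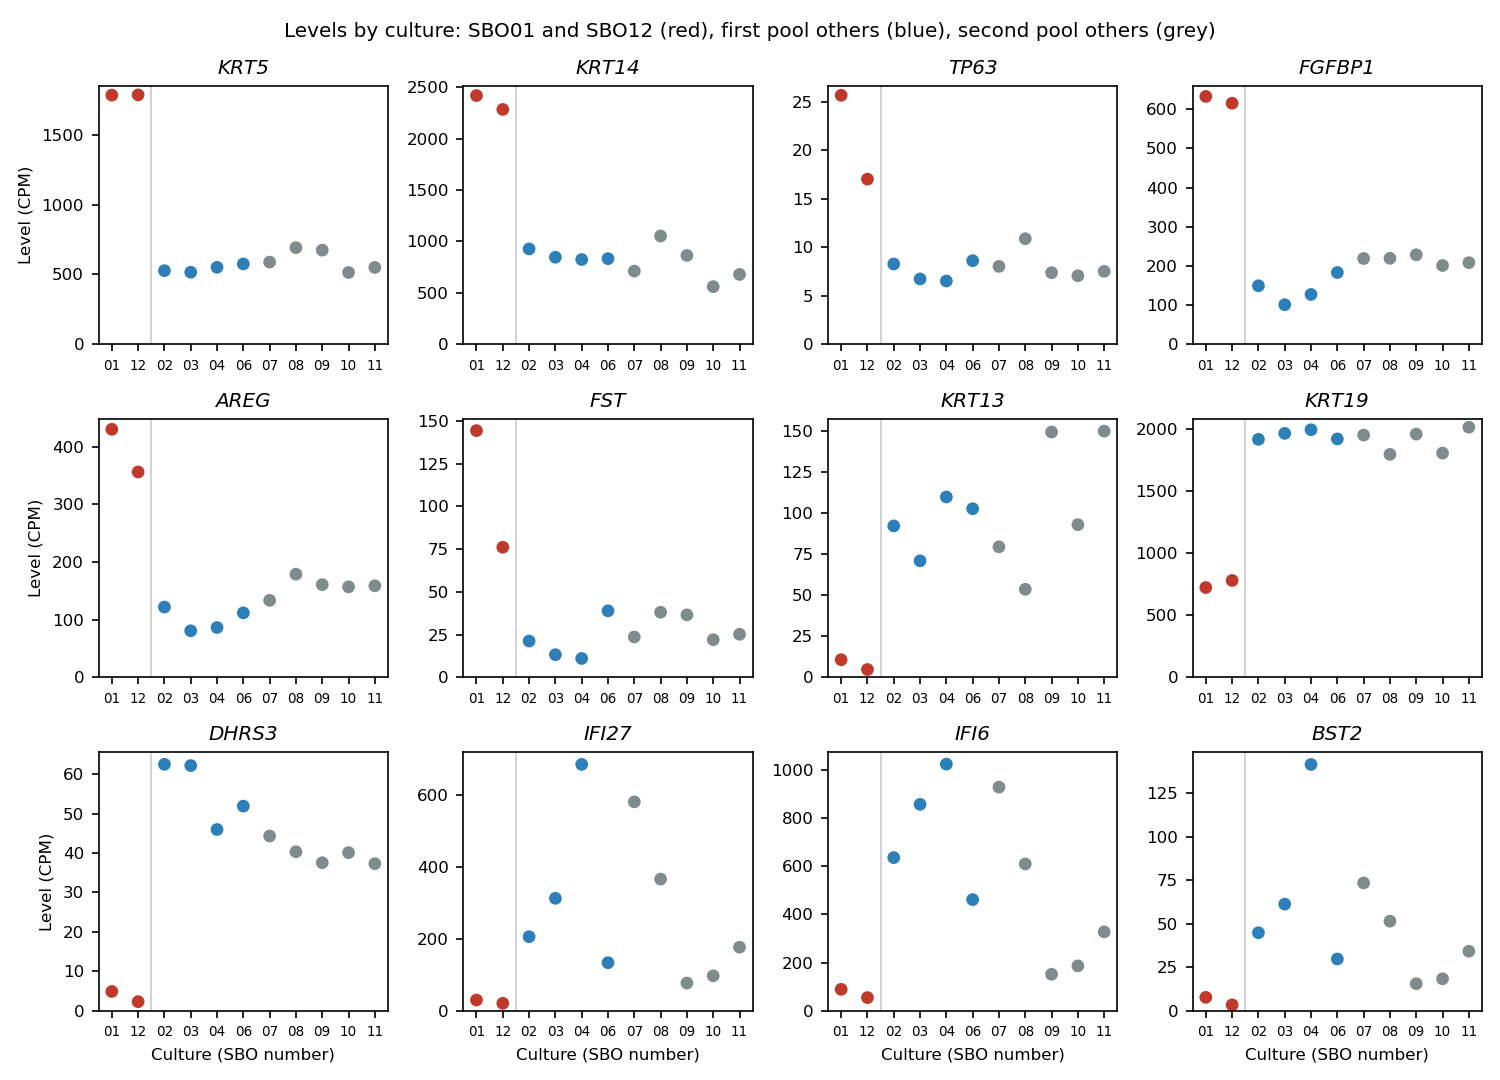
Level in CPM (y axis, from 0) of 12 genes in each culture (x axis), 1 point per culture: SBO01 and SBO12 in red, the other first pool cultures in blue and the other second pool cultures in grey. KRT5 lies near 1785 CPM in both red points against 514 to 692 CPM in the other 9, while KRT13, KRT19 and DHRS3 lie below all of the other 9.

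Across 15796 genes tested, 3189 were higher (20.2% of those tested) and 3120 lower (19.8%) in SBO01 and SBO12 than in the other 9 at an adjusted p under 0.05. Both cultures were above all 9 others for 1552 genes (9.83%) and below all 9 for 3046 genes (19.3%). Because the cultures were chosen on this contrast, these shares are the background for the lists below and nothing is read from them. The differences upward were mostly small, with 217 genes higher by at least 1 on the log2 scale and 1209 lower by as much. The direction went with the level of the gene. Of the 2593 genes with a mean of up to 1 CPM, 4.09% were higher and 25.9% lower, while of the 1696 genes above 100 CPM, 39.2% were higher and 11.1% lower. With SBO05 among the other cultures 1151 genes were higher and 955 lower, and with each cell thinned to 10000 UMIs 1952 were higher and 2012 lower.

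Of the 8 genes in the list of basal and stress keratins, 7 were higher and 1 lower, with a median log2 fold change of 1.14 against -0.00767 over all genes tested. KRT17, a keratin of basal and wounded epithelium, stood at 3761 CPM in SBO01 and 3718 CPM in SBO12, against 1205, 1473 and 1866 CPM in the other 9 (lowest, median, highest). KRT6A, induced in stressed epithelium, stood at 1046 and 1184 CPM in SBO01 and SBO12, against 475, 538 and 757 CPM. The exception was KRT15, a keratin of resting basal cells in skin, at 17.2 CPM in SBO01 and 14.3 CPM in SBO12, against 51.9, 78.7 and 149 CPM, a log2 fold change of -2.31 ± 0.24 (adjusted p 0.051 by edgeR with SBO05 among the other cultures). KRT15 was thus below every other culture while its partner KRT5 was above every one.

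Of the 14 hemidesmosome and basement membrane adhesion genes, 9 were higher and 2 (CD151 and ITGA2) lower, with a median of 0.365. Their summed level was 2036 CPM in SBO01 and 1798 CPM in SBO12, against 1284 to 1970 CPM in the other 9. The list as a whole thus did not set SBO12 apart. ITGA6 and ITGB4 encode the chains of the integrin at the core of the hemidesmosome. ITGA6 stood at 189 CPM in SBO01 and 179 CPM in SBO12, against 82.3, 92.3 and 102 CPM in the other 9. ITGB4 stood at 160 and 159 CPM in SBO01 and SBO12, against 66.2, 78.7 and 94.3 CPM. COL17A1, a transmembrane collagen, and DST, a linker to keratin filaments, were above all of the other 9, and COL17A1 had a log2 fold change of 1.23 ± 0.14. LAMA3 and LAMB3, genes of laminin chains, did not pass the test. LAMB3 stood at 157 CPM in SBO01 and 111 CPM in SBO12, against 95.2 to 203 CPM, and the log2 fold changes of LAMA3 and LAMB3 were -0.30 ± 0.17 and -0.10 ± 0.17.

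Of the 20 tested genes in the basal mammary and myoepithelial list, 11 were higher and 5 lower, with a median of 0.53. The 5 lower genes were CDH3, MME, NGFR, OXTR and TAGLN, and the genes named next are among the higher ones. S100A2, a calcium-binding protein of basal epithelium, stood at 6090 CPM in SBO01 and 6690 CPM in SBO12, against 1295, 2184 and 3377 CPM in the other 9. SNAI2, a transcription factor of basal cells that also acts in epithelial-to-mesenchymal transition, stood at 26.6 and 25.5 CPM in SBO01 and SBO12, against 10.0, 13 and 22.4 CPM, and did not pass in SBO12 alone against its pool (edgeR adjusted p 0.0532). SFN, an epithelial cell-cycle regulator, stood at 2528 and 2392 CPM in SBO01 and SBO12, against 1092, 1247 and 1419 CPM.

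Keratins of luminal and mucosal epithelium were lower. Of the 9 tested genes of this list 8 were lower and none higher, with a median of -1.28, and KRT4, at 0.0205 CPM in SBO01 and 0.0913 CPM in SBO12, did not pass. KRT8 stood at 1252 CPM in SBO01 and 1232 CPM in SBO12, against 2748, 3012 and 3143 CPM in the other 9. KRT18, the partner of KRT8, stood at 2466 and 2462 CPM in SBO01 and SBO12, against 4852, 5575 and 6032 CPM. KRT19 stood at 722 and 779 CPM in SBO01 and SBO12, against 1794, 1949 and 2012 CPM. KRT13, a keratin of non-cornified mucosa, had the lowest log2 fold change of the list, at 10.8 CPM in SBO01 and 4.80 CPM in SBO12, against 53.7, 93.1 and 150 CPM, a log2 fold change of -3.59 ± 0.42. KRT8, KRT18 and KRT19 did not pass with SBO05 among the other cultures, where KRT18 stands at 751 CPM.

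Of the 18 tested genes of the luminal secretory list, 17 were lower and none higher, with a median of -1.99, and 16 were below all of the other 9. ELF3, an epithelial transcription factor, stood at 35.5 CPM in SBO01 and 28.1 CPM in SBO12, against 139, 223 and 270 CPM. WFDC2, a secreted protein of glandular epithelium, stood at 108 and 79.0 CPM in SBO01 and SBO12, against 273, 404 and 489 CPM. EPCAM, an epithelial adhesion molecule, differed least of those that passed, at 236 and 255 CPM against 302, 322 and 365 CPM. All 9 tested kallikreins, secreted serine proteases, were lower, with a median of -2.38. KLK6 stood at 8.93 CPM in SBO01 and 5.25 CPM in SBO12, against 71.7, 89.8 and 118 CPM, and KLK7 stood at 17.8 and 10.5 CPM, against 103, 145 and 218 CPM. The lowest log2 fold change among genes with a mean of 20 CPM or more was that of DHRS3, a reductase of retinaldehyde, at -3.69 ± 0.16, with 4.85 CPM in SBO01 and 2.26 CPM in SBO12 against 37.3, 44.3 and 62.5 CPM. These low levels were not particular to SBO01 and SBO12. Kallikreins summed to 80.2 CPM in SBO05, against 156 CPM in SBO01 and 130 CPM in SBO12. The luminal secretory list summed to 358 CPM in SBO05, against 1495 and 1328 CPM, and DHRS3 stood at 8.54 CPM in SBO05.

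The interferon-stimulated genes were lower together. All 35 of the list were tested and lower, with a median of -1.76, and 31 were below all of the other 9. Their summed level was 2128 CPM in SBO01 and 1732 CPM in SBO12, against 2849, 5725 and 8501 CPM in the other 9. The other 9 differed widely among themselves, with SBO09 (2849 CPM) and SBO10 (2907 CPM) nearest to SBO01 and SBO12 and SBO04 highest. SBO05 had 2263 CPM, so a low level was not particular to SBO01 and SBO12, and with SBO05 among the other cultures IFI27, MX1 and ISG15 did not pass. IFI27, IFI6, MX1 and ISG15 did not pass in SBO12 alone against its pool either. IFI27, a gene strongly induced by interferon, stood at 29.5 CPM in SBO01 and 20.3 CPM in SBO12, against 76.8, 206 and 687 CPM. BST2, a membrane protein that tethers virus particles, stood at 7.60 and 3.29 CPM in SBO01 and SBO12, against 15.5, 44.8 and 141 CPM. MX1, an antiviral GTPase, stood at 50.8 and 28.5 CPM in SBO01 and SBO12, against 83.4, 302 and 548 CPM. All 14 class I antigen presentation genes were lower too, with a median of -0.695. HLA-B, a chain that presents peptides to T cells, stood at 182 CPM in SBO01 and 129 CPM in SBO12, against 282, 660 and 837 CPM. Its partner B2M stood at 1400 and 1250 CPM in SBO01 and SBO12, against 1644, 2310 and 2811 CPM.

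**Figure D2:**
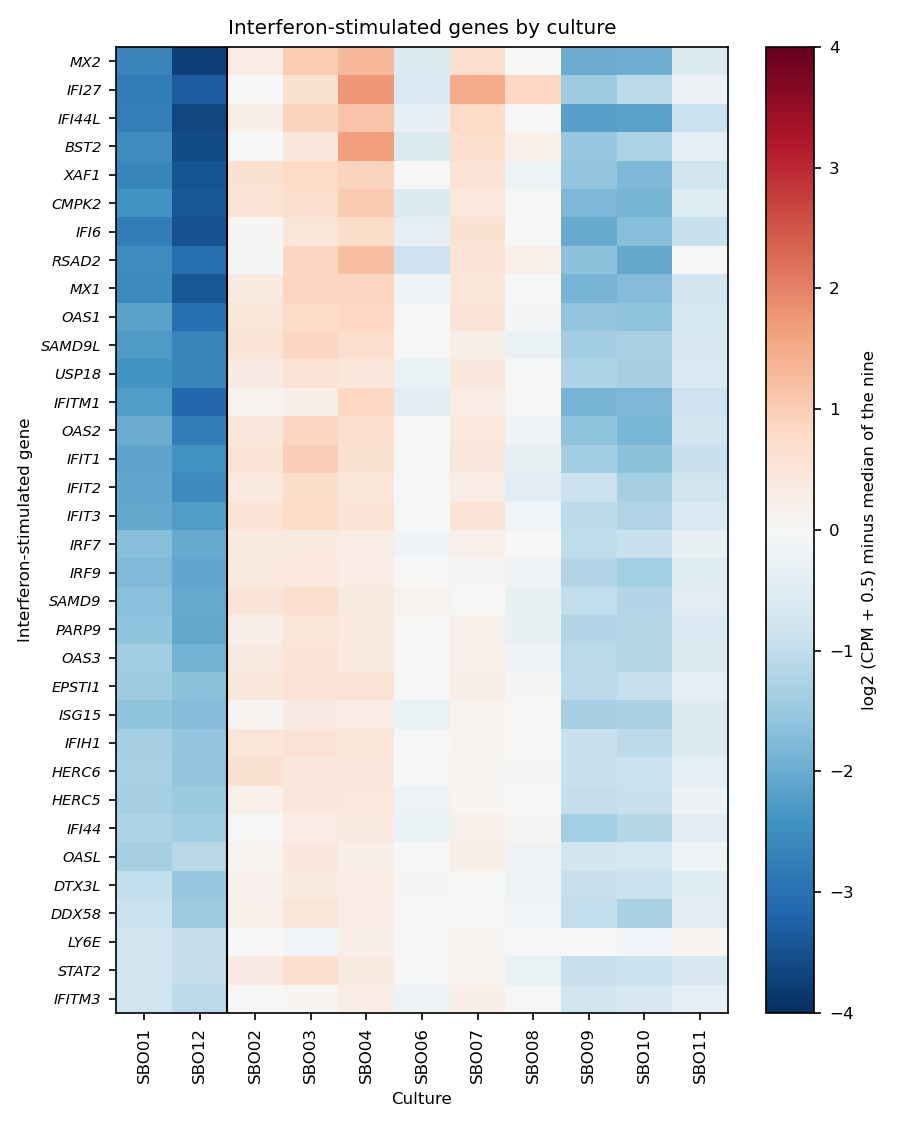
Heat map of interferon-stimulated genes (rows) in each culture (columns, SBO01 and SBO12 at the left of the black line), coloured by log2 of CPM + 0.5 minus the median of the other 9 cultures. SBO01 and SBO12 are below all of the other 9 for 31 rows. Of the other 9, SBO09 and SBO10 have the lowest sums (2849 and 2907 CPM), and SBO04 is high for IFI27 (687 CPM) and BST2 (141 CPM).

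Promoters of these genes hold the short repeat that interferon-activated factors bind. Promoters of 250 bases before to 50 after the start came from RefSeq (GRCh38.p14) for 11327 of the 15796 tested genes, and GAAA, 2 bases of any kind and GAAA again, searched on both strands with overlaps allowed, was found in 17 of 26 interferon-stimulated promoters (65.4%) and 7 of 11 class I promoters (63.6%), against 2.92% of all 11327. It was in 6.43% of promoters of genes higher by at least 1 and 7.44% of those lower by as much. IFI27, ISG15, IFI6 and BST2 are shown as examples of lower genes that hold it, with every match in capitals and neighbouring matches merged. They lie at chr14:94110598-94110680 (plus strand), chr1:1013354-1013429 (plus), chr1:27672246-27672378 (minus) and chr19:17405715-17405790 (minus).
IFI27: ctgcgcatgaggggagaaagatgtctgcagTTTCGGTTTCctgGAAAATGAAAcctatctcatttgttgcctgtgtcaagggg
ISG15: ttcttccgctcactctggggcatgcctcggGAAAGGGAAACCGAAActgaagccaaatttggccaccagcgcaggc
IFI6: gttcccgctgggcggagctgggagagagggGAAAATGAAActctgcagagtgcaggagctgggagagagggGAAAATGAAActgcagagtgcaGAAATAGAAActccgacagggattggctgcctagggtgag
BST2: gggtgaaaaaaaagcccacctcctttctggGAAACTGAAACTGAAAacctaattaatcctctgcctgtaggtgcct
A match is a run of letters and not a shown binding site. Since the series concerns G-quadruplexes, the same promoters were read for 4 runs of at least 3 G with 1 to 7 bases between them, on both strands. They were found in 33.5% of promoters of higher genes and 41.4% of promoters of lower genes, against 34.2% of all. The share for genes with a change of at least 1 was 31.4% among higher and 39.1% among lower genes. Of the 21 helicases and other proteins that bind G-quadruplexes, 13 were higher and none lower, with a small median of 0.19, and DHX36, which unwinds them, stood at 75.6 CPM in SBO01 and 78.1 CPM in SBO12, against 70.1, 74.3 and 79.9 CPM, a call lost under several alternatives. The letters TGANTCA, to which AP-1 factors bind, read the same on both strands and were in 15% of promoters of genes higher by at least 1 and 8.80% of those lower by as much, against 5.04% of all. This order was not particular to them. The letters TATAAA were in 17.1% of promoters of genes higher by at least 1 and 10.1% of those lower by as much, against 5.9% of all.

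Growth factor genes differed in both directions. AREG, a ligand of the EGF receptor, stood at 430 CPM in SBO01 and 356 CPM in SBO12, against 80.8, 134 and 179 CPM in the other 9. NRG1, a ligand of the related ERBB receptors, stood at 23.9 and 17.0 CPM in SBO01 and SBO12, against 3.84, 5.14 and 7.38 CPM, but at 21.5 CPM in SBO05. TGFA, another ligand of the EGF receptor, was lower at 15.8 and 10.7 CPM against 17.6, 20.3 and 25.6 CPM. Of the 12 genes of this family, 4 were higher and 3 lower (20.2% and 19.8% of all genes). FST, a secreted inhibitor of activin, stood at 144 CPM in SBO01 and 76.1 CPM in SBO12, against 11.1, 23.6 and 38.9 CPM. PTHLH, the gene of a hormone-like protein, stood at 87.5 and 71.8 CPM in SBO01 and SBO12, against 18, 26.7 and 38.4 CPM. HTRA1, a secreted protease, stood at 114 and 119 CPM in SBO01 and SBO12, against 21.5, 32.7 and 40.2 CPM, but at 269 CPM in SBO05, and it did not pass with SBO05 among the other cultures.

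Of the 26 TGF-β target and feedback genes, 6 were higher and 10 lower, with a median of -0.234, so the list did not move one way. ID1 and ID3, inhibitors of differentiation, were lower, with ID1 at 18.3 CPM in SBO01 and 20.8 CPM in SBO12 against 51.4, 59.3 and 95.2 CPM. CCN2, a matricellular protein, was higher at 80.9 and 65.6 CPM in SBO01 and SBO12, against 25.4, 35.4 and 47.4 CPM. Of the 21 tested mesenchymal and matrix genes, 10 were lower and none higher, with a median of -0.491. FN1, the gene of fibronectin, stood at 660 CPM in SBO01 and 516 CPM in SBO12, against 745, 1644 and 3136 CPM, and did not pass in SBO12 alone against its pool or with SBO05 included. VIM, the gene of vimentin, stood at 273 and 230 CPM in SBO01 and SBO12, against 99.8, 244 and 307 CPM, which overlap, with a log2 fold change of 0.44 ± 0.24 that did not pass, but did without SBO08 (0.60, edgeR adjusted p 0.00765).

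Adhesion genes differed in both directions. Of 22 epithelial junction genes, 8 were higher and 7 lower, with a median of -0.00957. CDH1, the gene of E-cadherin, stood at 49.3 CPM in SBO01 and 38.6 CPM in SBO12, against 59.1, 69.5 and 100.3 CPM, whereas DSC3, a desmosomal cadherin of basal layers, stood at 53.8 and 41.7 CPM against 21.8, 25.5 and 34.9 CPM. Of 15 tested cornified envelope and squamous genes, 1 was higher (CSTA) and 5 were lower. CSTA, an inhibitor of cysteine proteases, stood at 119 and 116 CPM in SBO01 and SBO12, against 31.1, 45.9 and 51.9 CPM, and IVL, a marker of differentiation, at 3.40 and 1.92 CPM against 5.72, 7.47 and 13 CPM. IGFBP3, a binding protein of insulin-like growth factors, stood at 2.95 and 1.69 CPM in SBO01 and SBO12, against 15.3, 24.7 and 37.2 CPM. MMP9, a gelatinase, stood at 14.4 and 9.07 CPM in SBO01 and SBO12, against 36.9, 91.6 and 156 CPM.

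Genes of cholesterol synthesis and the mitochondrial genome were higher. Of 14 cholesterol synthesis genes, 11 were higher and none lower, with a median of 0.56. HMGCS1, an early enzyme of the pathway, stood at 449 CPM in SBO01 and 431 CPM in SBO12, against 207, 233 and 333 CPM. FDFT1, which makes squalene, stood at 644 and 652 CPM in SBO01 and SBO12, against 375, 407 and 443 CPM. Of 13 mitochondrially encoded genes, 12 were higher, with a median of 0.505, and the median share of mitochondrial UMIs per cell was 1.88% in SBO01 and 1.95% in SBO12, against 1.28 to 1.68% in the other 9. C15orf48, whose product takes the place of NDUFA4 in the respiratory chain, stood at 64.7 and 27.9 CPM in SBO01 and SBO12, against 190, 365 and 753 CPM, while NDUFA4 was higher, at 424 and 439 CPM against 309, 342 and 376 CPM. Metallothioneins, which bind zinc and copper, were higher for 6 of 8 tested, and MT3 was lower, at 0.225 CPM in SBO01 and 0.206 CPM in SBO12 against 0.410 to 1.27 CPM. MT1G stood at 257 CPM in SBO01 and 58.9 CPM in SBO12, against 8.03, 22.7 and 36.2 CPM, but at 93.3 CPM in SBO05. The metallothionein list summed to 9487 CPM in SBO01 and 8092 CPM in SBO12, against at most 8026 CPM in the other 9. In SBO05 it summed to 16100 CPM, so a high level was not particular to SBO01 and SBO12. Of 20 genes of the G2/M phase, 13 were higher and none lower, with a median of 0.216, and CCNB1, which starts mitosis, stood at 327 and 312 CPM against 229, 247 and 276 CPM. Of 20 S phase genes, 7 were higher and none lower, with a median of 0.0547. Of all tested genes, 32.9% of those at 20 to 100 CPM and 39.2% of those above 100 CPM were higher. Nothing is therefore read from the S phase count.

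**Figure D3:**
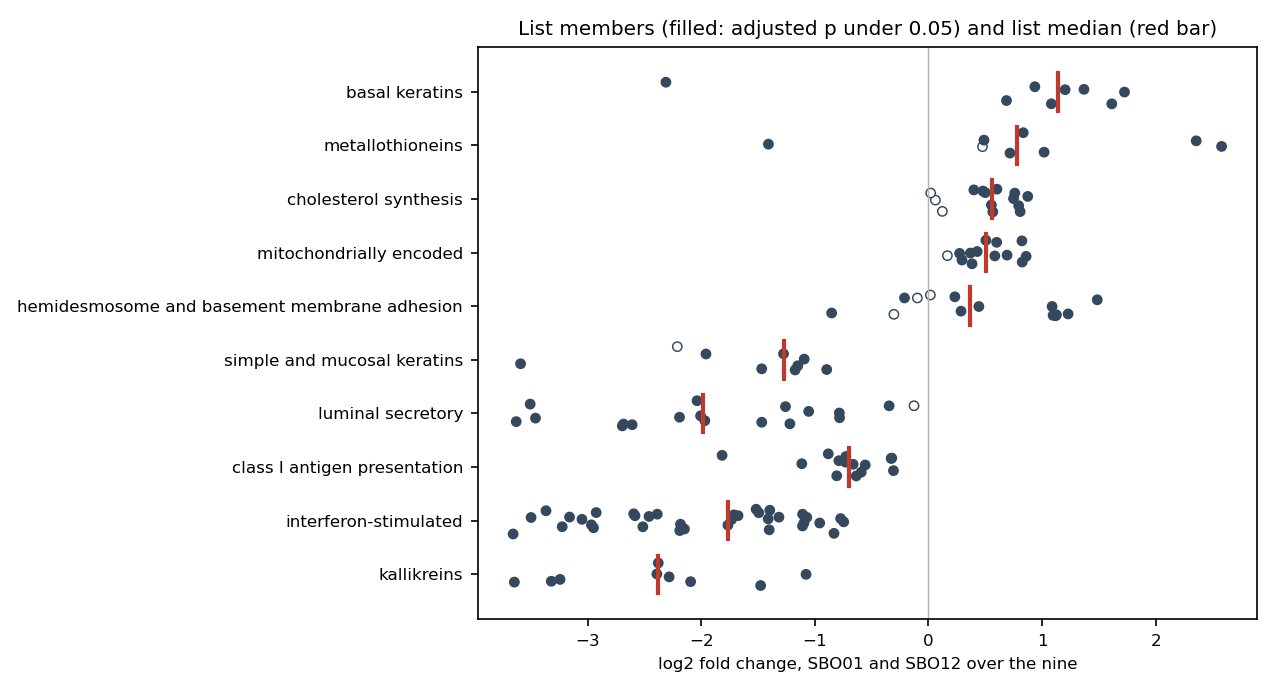
log2 fold change of SBO01 and SBO12 over the other 9 cultures (x axis) for each tested member of 10 gene lists (rows), filled where the adjusted p was under 0.05 and open otherwise, with the list median as a red bar. Basal keratins have the highest median (1.14) with KRT15 alone on the left, and kallikreins the lowest (-2.38).

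Markers of other cell types were mostly too low to test, with 2 of 8 leukocyte, 2 of 7 endothelial, 5 of 8 stromal and 1 of 5 adipocyte markers tested. The leukocyte list summed to 13.7 CPM in SBO01 and 13.2 CPM in SBO12, against 15.3 to 31.5 CPM in the other 9, nearly all of it CD68, a lysosomal protein, at 13.1 and 12.7 CPM, which did not pass. CD14, of monocytes, was lower, at 0.573 and 0.457 CPM in SBO01 and SBO12 against 2.30 to 4.1 CPM. The endothelial genes CDH5 and KDR were lower too, with CDH5 at 0.164 and 0.0457 CPM against 0.654 to 2.05 CPM. PTPRC, the pan-leukocyte gene, was at 0 CPM in SBO01 and 0.0228 CPM in SBO12, against at most 0.0773 CPM in the other 9. PECAM1, of endothelium, was at 0.0205 and 0.0457 CPM, and ADIPOQ, of fat cells, at 0.0409 and 0 CPM in SBO01 and SBO12. Of the stromal fibroblast markers 2 of 5 tested were lower and none higher, and their summed level was 73.3 CPM in SBO01 and 56.8 CPM in SBO12, against 66.4 to 161 CPM.

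Cells were compared after thinning each to 10000 UMIs, which 1622 cells of SBO01 and 1191 of SBO12 reached. TP63 had a UMI in 20.9% of these cells of SBO01 (exact 95% binomial interval 18.9 to 23.0%) and 17.0% of SBO12 (15 to 19.3%), against 4.95 to 8.64% in the other 9 and 0.811% in SBO05. Intervals cover counting error only. FGFBP1 had a UMI in 92.3% of cells of SBO01 and 92.9% of SBO12, against 38.2 to 66.4% in the other 9, and 6.78% in SBO05, the culture lowest in basal keratins at the same depth. KRT14 had a median of 21 UMIs per cell in SBO01 and 19 in SBO12, against 3 to 7 in the other 9. KRT13 had a UMI in 3.82% of cells of SBO01 and 2.85% of SBO12, against 15.2 to 30.6% in the other 9 and 2.72% in SBO05. BST2 had a UMI in 4.5% of cells of SBO01 and 1.85% of SBO12, against 7.94 to 44.9% in the other 9 and 19.5% in SBO05. In sums over a culture, fewer cells with a transcript and fewer molecules per cell cannot be told apart. VIM had a UMI in 58.2% of cells of SBO01 and 54.6% of SBO12, against 22.9 to 45.2% in the other 9 and 99.1% in SBO05, while its CPM overlapped, so no order is read from it.

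**Figure D4:**
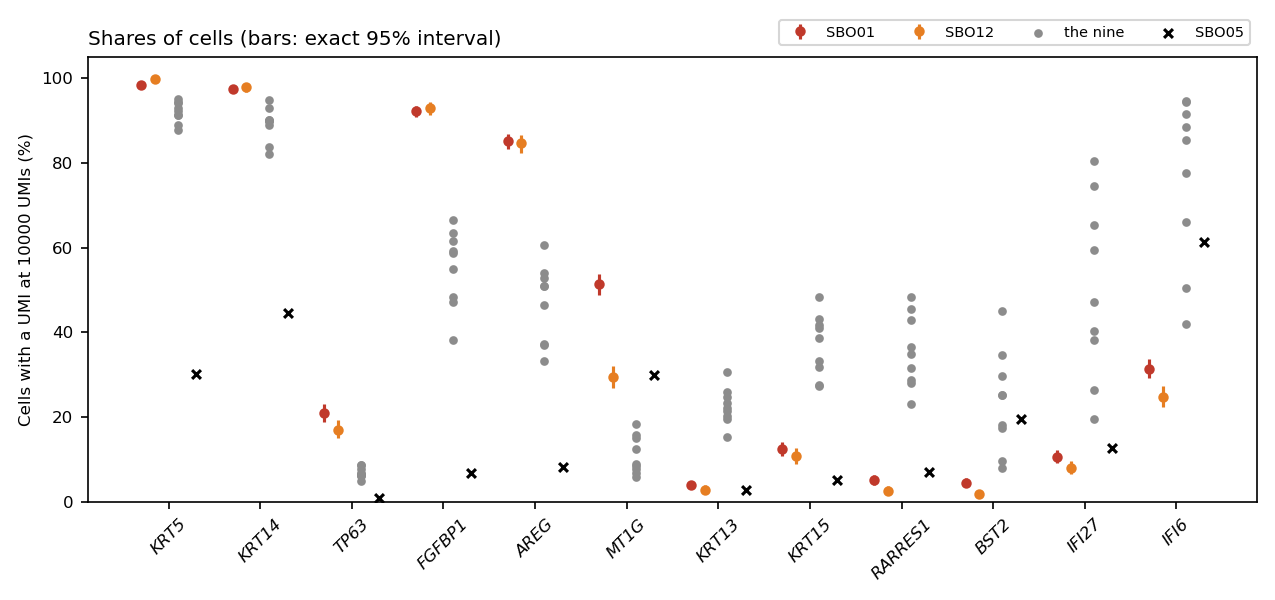
Share of cells with at least 1 UMI of each gene after thinning to 10000 UMIs (y axis, percent) for 12 genes (x axis): SBO01 (red) and SBO12 (orange) with exact 95% intervals, the other 9 cultures (grey) and SBO05 (cross). FGFBP1 lies at 92.3 and 92.9% in SBO01 and SBO12 against at most 66.4% in the other 9, and RARRES1 at 5.06 and 2.6% against at least 23.0%.

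The difference between SBO01 and SBO12 was not used to choose them and was tested. Each was set against its own pool, and the pools share no culture, so no control sample is common to both. By edgeR's quasi-likelihood test with Benjamini-Hochberg adjustment, 0 of 15796 genes (0%) differed between the cultures, 783 at an unadjusted p under 0.05 (4.96%), and the smallest adjusted p was 0.12. Each culture is single, so its spread is taken from the other 9. A p that misses the threshold does not show that they are alike. The change in FST was 1.36 ± 0.62 larger on the log2 scale in SBO01 than in SBO12, that in MT1G 1.04 ± 0.50 and that in CXCL1 1.55 ± 0.96, genes chosen after their values were seen, each with an adjusted p of 0.935 by edgeR. CXCL1, a chemokine for neutrophils, stood at 50.3 CPM in SBO01 and 9.04 CPM in SBO12, against 4.96, 22.7 and 40.3 CPM in the other 9. For 6072 genes whose mean was 20 CPM or more, the log2 fold changes of SBO01 and SBO12, each against its pool, had a Pearson r of 0.918 across genes, and for all 15796 genes one of 0.798. These genes are not independent replicates and come from cells of 1 line. Both cultures were chosen for high keratin levels, so some of this likeness was set by the choice.

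**Figure D5:**
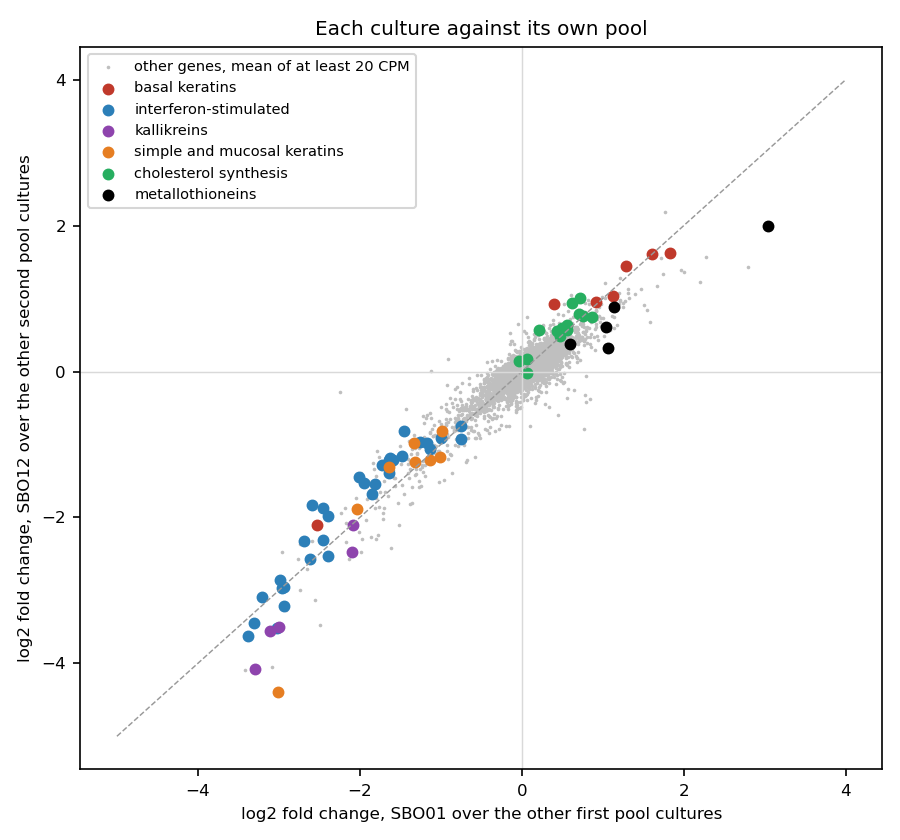
log2 fold change of SBO01 over the other first pool cultures (x axis) against that of SBO12 over the other second pool cultures (y axis) for genes whose mean was 20 CPM or more (1 point per gene, 6 lists coloured, dashed line of equality). Points of the interferon-stimulated genes and kallikreins lie at the lower left and basal keratins at the upper right, except KRT15.

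Measures other than gene levels were tested by exact permutation within pools (30 arrangements, smallest p 0.0333), two-sided, with adjustment over the 4. Cells of SBO01 and SBO12 held medians of 27715 and 35406 UMIs, against 23181 to 27087.5 UMIs in the other first pool cultures and 32999 to 34603 UMIs in the other second pool cultures. Each was the highest of those compared in its pool (exact permutation p = 0.0333, adjusted 0.0667). They also held the most assigned cells among the cultures compared (p = 0.0333, adjusted 0.0667, exact permutation), 1718 and 1227 against 352 to 1074, although SBO05 had 1864. Counting only cells whose own barcode was highest, the log2 difference in cell number was 0.509 in place of 1.14, with an exact permutation p of 0.533. Genes per cell at 10000 UMIs had medians of 3382 in SBO01 and 3307 in SBO12, against 3270 to 3462 in the other 9 (exact permutation p = 0.167, adjusted 0.167). UMIs of the own barcode did not pass either (exact permutation p = 0.167, adjusted 0.167). None of the 4 measures passed 0.05 after adjustment. With a smallest p of 0.0333 by exact permutation, no measure could pass unless most of the 4 reached that p together. Nothing is therefore concluded from their not passing.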

How the data were processed

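The deposited values are raw UMI counts, in 1 matrix per mRNA library holding 36601 genes and 12 barcodes. Per the submitters' processing notes the authors used Seurat 4.1.0, Cell Ranger 6.0.2 and bcl2fastq 2.20.0.422 with the build hg38; the gene annotation release is not given in the sources used here. Of 26247 cell barcodes, 22147 with 1000 genes or more and mitochondrial UMIs of 15% or less were kept and assigned within each library with HTODemux of Seurat 5.3.0 at a positive quantile of 0.99. Doublets (5510) and unassigned cells (5565) were left out; pairs from 1 culture stay in. UMIs were summed per culture (8589593 to 48844485) over both loads of its pool, which are not replicates. No replicate cultures are labelled, so the spread is that between cultures that may have been treated differently. edgeR 4.0.16 was run with filterByExpr, TMM, the pool as a block and a false discovery rate of 0.05, and checked on simulated data. Promoters and gene positions came from RefSeq and GENCODE 29. Named genes were the 15 largest and 15 smallest log2 fold changes among non-overlapping genes whose mean was 20 CPM or more, the 4 markers and up to 5 members of each list, plus members whose role the text needs. Some list members are counted but not reported here by name. Members and lists were chosen with earlier results of these data known. Alternatives were another normalization (RLE), no filter, other barcode rules, thinned cells, a mitochondrial limit of 10%, DESeq2 1.42.0, no pool block, SBO05 included, and each library or culture left out.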

Additional observations from a re-analysis of the deposited data

Results flagged for a closer look

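Dixon's test was run over the other 9 cultures for the largest, the smallest and the marker genes and for the 4 cell measures, 35 sets in all, and marked 3 of them, where chance marks about 1 in 20. BST2 in SBO04 stood at 141.4 CPM, apart from the other 8, against 7.6 CPM in SBO01 and 3.29 CPM in SBO12. TP63 in SBO08 stood at 10.88 CPM, above the other 8, against 25.7 CPM in SBO01 and 17.0 CPM in SBO12. PTHLH in SBO08 stood at 38.4 CPM, against 87.5 and 71.8 CPM in SBO01 and SBO12. SBO08 is also the barcode highest in 736 cells assigned to SBO12, and the part of this overlap in the values was not tested.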

How the results depend on the processing

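No paired analysis was possible because the cultures of the pools carry different barcodes and share no replicate number. Of the counts, those that moved by over 1.5 times were these. Thinning to 10000 UMIs gave 1952 genes higher, 2012 lower and 1866 below all the other 9. SBO05 among the other cultures gave 1151 higher and 955 lower. SBO01 alone against its pool gave 2073 higher and 1943 lower, and SBO12 alone 1087 and 1328. Without a filter on low counts 7 genes differed between SBO01 and SBO12, against 0 with it. RLE gave 3215 higher and 3093 lower, DESeq2 3070 and 2851, no pool block 2148 and 2395, and the top barcode rule 2397 and 2417. The top barcode rule left SBO12 with 60 cells in library 3 and 38 in library 4, against 682 and 545 in the main assignment. SBO08 held 1642 and 1320 cells under it, against 477 and 386. Its counts therefore say little about the cells assigned to SBO12 in the main comparison. SBO12 taken only from cells with another barcode highest, an alternative added after seeing the data, gave 3133 and 3076. Leaving out each library or culture gave 2667 to 3208 higher and 2666 to 3130 lower. No named gene that passed in either fit changed sign in any setting, while 8 that passed in neither did. Of 173 named genes, 96 changed their call in some setting, 36 of them outside the settings with SBO05 or a single culture. With SBO05 included COL17A1, ITGB4, KRT6A, CDH1, DSC3, CCNB1, CCN2, IVL, MMP9, TGFA, NDUFA4, EPCAM, WFDC2, B2M and CXCL10 also did not pass, and DUSP1 and CXCL10 did not pass under the top barcode rule. The cause was not tested.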

Other observations

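Immediate early genes, which respond within minutes to stimuli, included none that was higher: 6 of 19 tested were lower (19.8% of all genes were), with a median log2 fold change of -0.0398 against -0.00767 over all genes, among them DUSP1, a phosphatase of MAP kinases, at 39.7 CPM in SBO01 and 31.7 CPM in SBO12, against 55.2, 76.6 and 96.0 CPM in the other 9 (lowest, median, highest). Of 20 p53 targets 4 were higher and 3 lower (20.2% and 19.8% of all genes), with a median of 0.0421. PHLDA3, an inhibitor of AKT, stood at 145 and 125 CPM in SBO01 and SBO12, against 62.0, 73.0 and 94.3 CPM, while CDKN1A, the p53 target that halts the cell cycle, overlapped at 237 and 193 CPM against 136, 183 and 402 CPM. Of 20 tested chemokines and cytokines 2 were higher and 5 lower (20.2% and 19.8% of all genes), with a median of -0.206. CXCL14 stood at 5.14 and 6.39 CPM in SBO01 and SBO12, against 0.547, 0.984 and 1.34 CPM, whereas CXCL10, an interferon-induced chemokine, stood at 1.11 and 0.343 CPM against 0.609, 9.13 and 23.1 CPM. Of 20 glycolysis and hypoxia genes 9 were higher and 1 lower, with a median of 0.213. Of all genes 20.2% were higher, and of those above 100 CPM 39.2%. NDRG1, induced by low oxygen, stood at 24.1 and 21.7 CPM in SBO01 and SBO12, against 7.73, 9.51 and 15 CPM, and CA9, another such gene, did not pass at 14.3 and 9.57 CPM against 9.40, 15.1 and 19.4 CPM.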
